A study of Mus musculus with 15 samples.

Results

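The members described here are the genes that send and receive Wnt signals in isolated mouse intradermal adipocytes. They were taken from the deposited count table by gene symbol. The 36 members, out of 35373 genes in the table, comprise 19 Wnt ligands, 10 Frizzled receptors, the co-receptors Lrp5 and Lrp6, the receptors Ror1, Ror2 and Ryk, and the secretion factors Porcn and Wls. Of these, 34 were counted in at least 1 library and 30 were abundant enough to be tested between groups. Wnt1 and Wnt8a had 0 counts in all 15 libraries.

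The study profiled RNA from the buoyant adipocyte layer of collagenase-digested dorsal skin, with and without activation of β-catenin. Wnt mice had the genotype EngrailedCre/+; Rosa26rtTA/Rosa26rtTA; TetOBcat/+, in which β-catenin is overexpressed in cells descended from the Engrailed lineage. Control mice, labelled WT, had the genotype +/+; Rosa26rtTA/Rosa26rtTA; TetOBcat/+, and so carried the transgenes but no Cre. Controls and Wnt mice alike were given doxycycline, at 6 g/kg of food and 2 mg/mL of drinking water. The 4 groups were controls at postnatal day 23 (P23, n = 3), P23 mice after 2 days of Wnt activation (n = 4), controls at postnatal day 26 (P26, n = 3) and P26 mice after 5 days of it (n = 5). The labels call the replicates biological and name no further strain. The design asks whether β-catenin activation, for a shorter or a longer time, was accompanied by a different level of each member.

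Wnt proteins are secreted lipid-modified ligands. Porcn, an acyltransferase of the endoplasmic reticulum, attaches the lipid, and Wls carries the modified ligand to the cell surface. In the canonical branch a Wnt binds a Frizzled receptor together with Lrp5 or Lrp6, and β-catenin is then spared from degradation and acts with TCF and LEF factors in the nucleus. Ror1, Ror2 and Ryk bind Wnts of the non-canonical branches, which do not need β-catenin. In adipose tissue canonical Wnt signalling is known as an inhibitor of adipocyte formation, with Wnt10b the ligand most often studied for it. The β-catenin transgene acts downstream of every member described here.

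Levels are given as CPM, counts scaled to a common library size after adjustment by the trimmed mean of M values (TMM). Total counts per library ran from 11383421 to 38501753, and the 3-count detection floor corresponded to 0.0766 to 0.254 CPM, for counting error alone. The 9 adipocyte markers summed to 10452 to 75445 CPM per library and none was at 0 in a whole group, so the labelled cell type was present. In 3 libraries the 9 stromal markers summed to more than the adipocyte markers, namely those labelled 2-day replicate 1 (22238 against 20896 CPM) and 5-day replicates 1 (34925 against 20342 CPM) and 5 (80152 against 10819 CPM). The library labelled P26 control replicate 1 had the lowest adipocyte sum and the highest keratinocyte sum, 4676 CPM against 34 to 1092 CPM in the others. The library labelled 2-day replicate 1 had hair follicle markers at 4719 CPM, against 0 to 849 CPM elsewhere, and the authors' deposited sample sheet lists it as a control. Axin2, a transcriptional target of β-catenin, stood at 39.8 CPM in the library labelled P23 control replicate 1 and 34.9 CPM in the library labelled P26 control replicate 1, against 4.17 to 9.07 CPM in the other controls. It stood at 10.01 CPM in the library labelled 2-day replicate 1, against 27.6 to 65 CPM in the other Wnt libraries, so Axin2 went against the labels of 3 libraries. Nkd1 and Nkd2, feedback inhibitors and also targets, went against the label of the library labelled P26 control replicate 1 alone. Nkd2 reached 49.3 CPM there, within the 5-day range of 33 to 62.6 CPM, whereas P26 control replicates 2 and 3 had 1.95 and 0.852 CPM. In the library labelled P23 control replicate 1 Nkd1 stood at 22.4 and Nkd2 at 7.96 CPM, below every 2-day library. In the library labelled 2-day replicate 1 they stood at 28.7 and 53.2 CPM, above every P23 control. Unlike Nkd1 and Nkd2, the TCF and LEF genes Tcf7 and Lef1 went against the label of P23 control replicate 1, at 13.9 and 11.7 CPM. P23 control replicates 2 and 3 had 0 and 3.35 CPM of Tcf7 and 2.71 and 0.161 CPM of Lef1. The 2-day ranges were 10.4 to 17.9 CPM for Tcf7 and 3.35 to 20.5 CPM for Lef1. Both genes also went against the label of the library labelled P26 control replicate 1, at 44.8 and 31.8 CPM. P26 control replicates 2 and 3 had 2.01 and 1.61 CPM of Tcf7 and 0.594 and 0 CPM of Lef1. The 5-day ranges were 11.4 to 26.1 CPM for Tcf7 and 5.35 to 10.4 CPM for Lef1. Other target genes are not described by library. Mitochondrial transcripts took 5.30% to 9.36% of counts in the P23 controls, 8.37% to 31.7% at 2 days (the highest in replicate 1), 3.69% to 7.93% in the P26 controls and 9.20% to 16.6% at 5 days. Y-linked transcripts were at 44.8 CPM or more in 8 of the 9 Wnt libraries. Among the 6 controls this held for the libraries labelled P23 control replicate 1 and P26 control replicate 1 alone, so sex and genotype cannot be told apart in most libraries. Without the latter, the P26 controls had 1.39 and 0 CPM, against 76.8 to 150 CPM at 5 days. No 5-day difference given without that library can be told apart from a difference of sex. In bulk RNA, fewer cells of a type and less RNA per cell cannot be told apart.

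Detection differed by role. All 6 of Fzd1, Fzd2, Fzd4, Fzd5, Fzd7 and Fzd8 were counted in every library, as were Lrp5, Lrp6, Ryk, Porcn and Wls. Among the 19 ligands only Wnt5a and Wnt11 were counted in every library. These 13 members are also the ones kept in the authors' deposited filtered table of 9395 genes, whose rows are those with 10 or more counts in each library. The other 21 members were counted in some libraries and at 0 in others. Zeros were not the tail of a low count: of 369 nonzero member values only 2 were counts of 1 or 2, and the median nonzero count was 202. A value of 0 therefore need not mean that the gene was silent in that mouse, and a single count need not stand for a single molecule. Wnt7a, Wnt8b and Wnt3a were each counted in a single library, Wnt7a with 17 counts in the library labelled P23 control replicate 1, Wnt8b with 4 in the library labelled 2-day replicate 1 and Wnt3a with 75 in 5-day replicate 1.

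**Figure D1:**
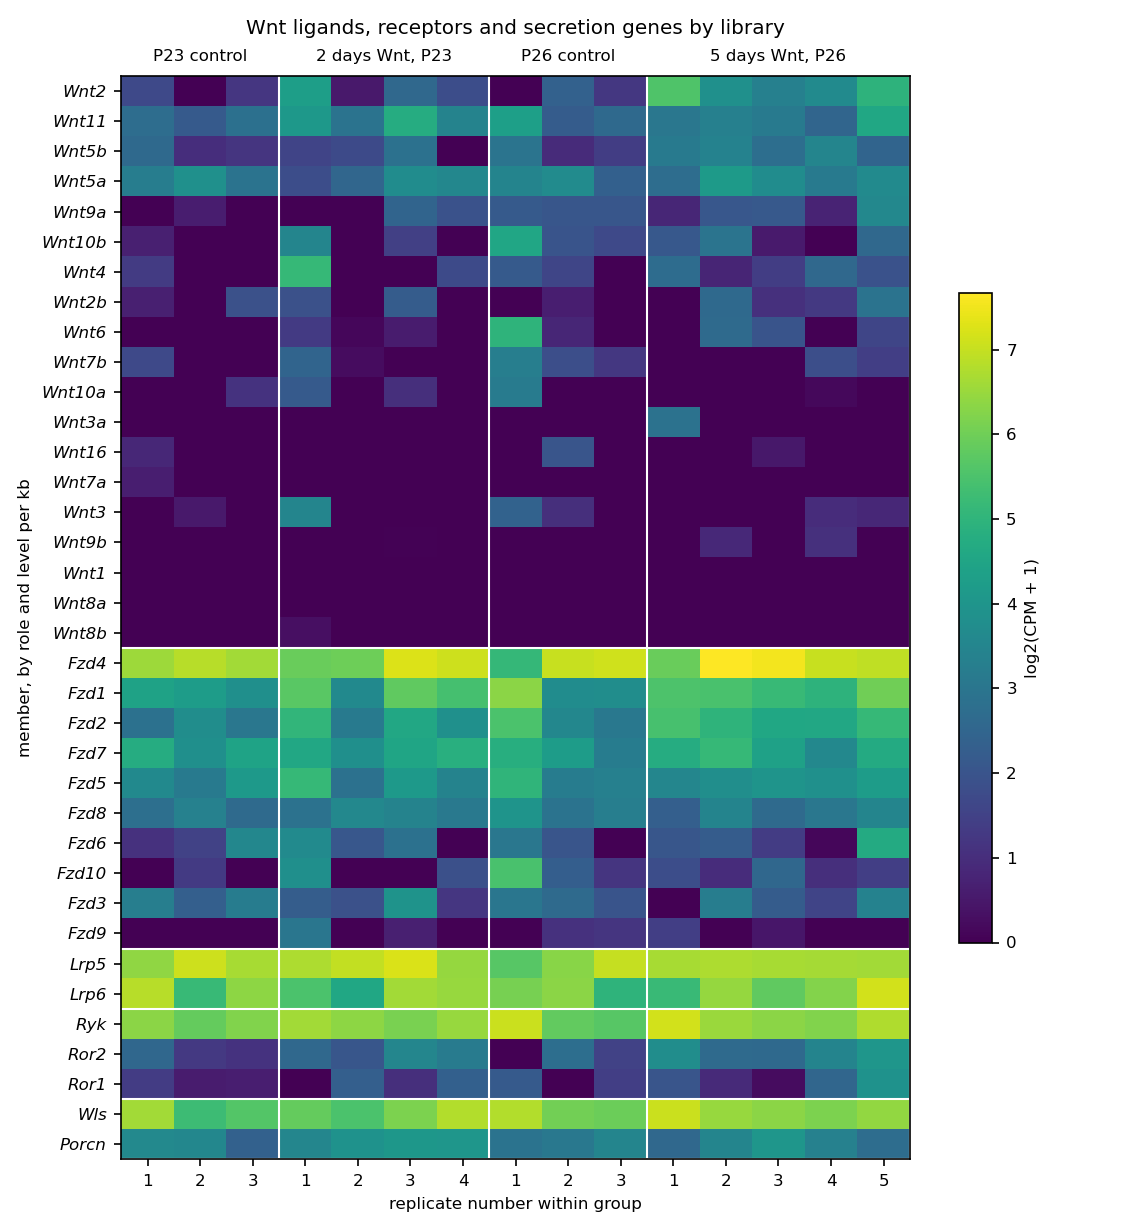
Level of each of the 36 members (rows, grouped by role and ordered by level per kb) in each of the 15 libraries (columns, by group and replicate number), coloured by log2(CPM + 1). The 13 members counted in every library form the bright rows, the ligand block is mostly dark, and the library labelled P26 control replicate 1 and the library labelled 2-day replicate 1 stand out within it.

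The 9 members with the highest levels per length were receptors, co-receptors and secretion genes, while the most abundant ligands ranked above some Frizzleds, Ror1 and Ror2. Divided by the length of the exon union, Fzd4 had the highest median over the 15 libraries, 18.2 CPM per kb, and Ryk followed with 17.6 CPM per kb. Lrp5 stood at 10.3, Fzd1 at 8.27, Wls at 8.05, Fzd2 at 6.25, Lrp6 at 5.54, Fzd7 at 4.80 and Porcn at 3.45 CPM per kb. The most abundant ligand by this measure was Wnt2, with a median of 1.89 CPM per kb and a range from 0 to 20.4 CPM per kb. Wnt11 at 1.76, Wnt5b at 1.71 and Wnt5a at 1.27 CPM per kb were the next ligands. Each member in this order overlapped in range with its neighbours, so neighbours are not separated. With coding length in place of the exon union Wnt5a took rank 9 and Wnt2 rank 14, while Fzd4 and Ryk stayed first and second.

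**Figure D2:**
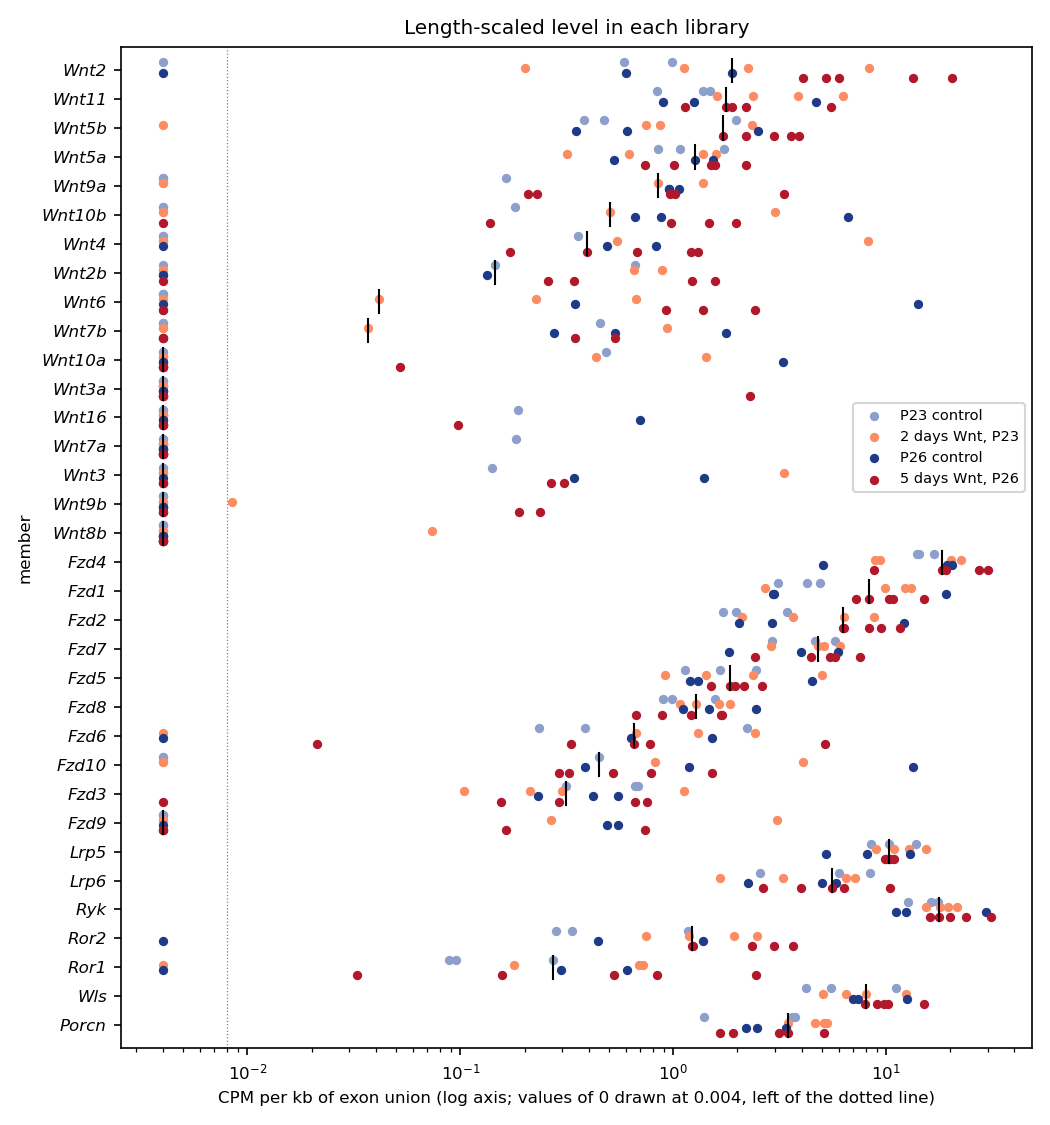
CPM per kb of exon union (log axis) of the 34 members counted in any library, with a point for each of the 15 libraries coloured by group and a bar at the median. Values of 0 are drawn left of the dotted line. Fzd4, Ryk and Lrp5 lie furthest right, and most ligands have points both at 0 and above 1.

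Summed over the 19 ligands, levels were 3.26, 4.53 and 6.90 CPM per kb in the P23 controls and 3.37 to 31.4 CPM per kb at 2 days. They were 4.87, 9.04 and 37.4 CPM per kb in the P26 controls and 13 to 30.7 CPM per kb at 5 days. The highest sum was that of the library labelled P26 control replicate 1, so the P26 groups overlapped. Without that library the 5-day sums lay above both remaining controls, but sex and genotype cannot be told apart in that comparison. Summed Frizzled levels ran from 29.8 to 31.2 CPM per kb in the P23 controls and from 20.6 to 53.5 CPM per kb at 2 days. They ran from 31.2 to 64.5 CPM per kb in the P26 controls and from 38.8 to 61.5 CPM per kb at 5 days.

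The promoters of Wnt2 and Wnt11 are shown because their Wnt and control libraries did not overlap, with every library included, at 5 days and at 2 days in turn. Each was the sole such member of 30, near the share of all genes higher in this way (3.39% at 5 days and 2.24% at 2 days). The Fzd1 promoter is an example, chosen after its values were seen, of the receptors that separated at 5 days without the library labelled P26 control replicate 1. Sequences are from RefSeq, build GRCm38.p6, 250 bases before to 50 bases after the annotated start, in the direction of the gene. The core of the TCF and LEF site, CTTTGA, was searched on both strands and no other motif was. It appears in capitals as TCAAAG where it lies on the opposite strand. Of 28 promoters found for 25 members, 4 held it (14.3%), those of Fzd1, Ror1, Wnt11 and Wnt5b, against 16.0% of 32851 promoters of the same length. In these windows the match lies at position -242 from the start for Fzd1 and at -50 for Wnt11, and the Wnt2 window holds none. A second Wnt11 promoter in the same table (chr7:98838595-98838894, plus strand) holds 0 matches and is not printed. Nothing about binding follows from such a match or its absence.
Wnt2 promoter (chr6:18030396-18030695, minus strand): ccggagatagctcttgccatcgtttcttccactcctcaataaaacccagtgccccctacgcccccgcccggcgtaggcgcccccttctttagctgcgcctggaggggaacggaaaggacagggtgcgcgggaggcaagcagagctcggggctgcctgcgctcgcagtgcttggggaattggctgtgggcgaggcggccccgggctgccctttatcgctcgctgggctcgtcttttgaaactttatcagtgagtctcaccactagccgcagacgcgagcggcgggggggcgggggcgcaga
Wnt11 promoter (chr7:98834862-98835161, plus strand): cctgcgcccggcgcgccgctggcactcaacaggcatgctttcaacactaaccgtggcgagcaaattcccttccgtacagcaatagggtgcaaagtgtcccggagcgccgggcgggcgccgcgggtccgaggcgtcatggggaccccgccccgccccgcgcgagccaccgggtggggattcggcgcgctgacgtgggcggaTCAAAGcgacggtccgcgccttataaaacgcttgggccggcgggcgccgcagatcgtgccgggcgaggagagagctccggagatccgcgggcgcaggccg
Fzd1 promoter (chr5:4758167-4758466, minus strand): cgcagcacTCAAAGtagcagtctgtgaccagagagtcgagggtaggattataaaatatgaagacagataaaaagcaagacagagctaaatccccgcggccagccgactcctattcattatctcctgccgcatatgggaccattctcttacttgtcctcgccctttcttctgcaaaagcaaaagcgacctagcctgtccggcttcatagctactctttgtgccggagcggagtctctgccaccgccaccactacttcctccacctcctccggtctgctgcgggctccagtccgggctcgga

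No member, and no gene of the 16935 tested, passed an adjusted p of 0.05 in edgeR's quasi-likelihood test with Benjamini-Hochberg adjustment, in any comparison of the 4 groups (0% of genes called). At an unadjusted p under 0.05 the members were Fzd9 and Wnt6 at 2 days (background 5.17% of genes), Wnt10a and Wnt2 at 5 days (7.06%), and Wnt16 and Wnt2 in the mean effect over both ages (7.85%). They were Fzd9 and Wnt6 for the difference between the 5-day and 2-day effects (5.72%) and Fzd10 and Wnt6 for P26 against P23 controls (6.98%). DESeq2's Wald test called 1 member each in the mean effect (Wnt2, background 1.90%) and in P26 against P23 controls (Wnt6, 1.69%), and none in the other comparisons, where it called 149 to 200 genes (0.880% to 1.18%). The limma-voom test with library weights called no member in any comparison, and 0 to 226 genes (up to 1.33%, 0.0650% in the mean effect and 0.791% between the controls). What follows are therefore levels and differences with their errors, none of them called by edgeR.

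Wnt2 (ENSMUSG00000010797, GRCm38 chr6:17988940-18030585, minus strand) encodes a ligand that can signal through β-catenin. Among the ligands tested, Wnt2 alone had no overlap between the 5-day libraries and the P26 controls. It stood at 2.21, 0 and 1.32 CPM in the P23 controls, 18.7, 0.452, 5.06 and 2.53 CPM at 2 days, 0, 4.26 and 1.35 CPM in the P26 controls and 46, 13.5, 9.15, 11.7 and 30.1 CPM at 5 days. All 5 of the 5-day libraries lay above all 3 P26 controls, while at 2 days replicate 2 lay below 2 of the P23 controls. Groups failed to overlap in this direction for Wnt2 alone among the 30 members at 5 days, which is near the share of all genes (3.39%). The log2 difference was 3.55 ± 1.52 at 5 days (edgeR adjusted p = 0.695) and 2.49 ± 1.47 at 2 days (adjusted p = 0.955). Over both ages it was 3.02 ± 1.05, with an unadjusted p of 0.0104 and an adjusted p of 0.482 in edgeR and of 0.0419 in DESeq2. The 2-day value rested on the library labelled 2-day replicate 1: without it the log2 difference was 1.17 ± 1.40, and with that library counted as a control, as the authors' sample sheet has it, -1.04 ± 1.48. The 5-day difference did not rest on the library labelled P26 control replicate 1, where Wnt2 was at 0, and it was 2.97 ± 1.45 without it. Stromal markers differed in the same direction as Wnt2, and 9 of 9 had a log2 difference above 0 at both times. Their medians were 1.25 at 2 days and 0.73 at 5 days. Their sum ran from 15485 to 80152 CPM at 5 days against 5461 to 24635 CPM in the P26 controls. The highest Wnt2 values, in 5-day replicates 1 and 5, were in the libraries with the highest stromal sums, and no stromal marker was at 0 in a group. Other libraries did not follow that order. In 5-day replicate 3 the stromal sum was 15485 CPM with Wnt2 at 9.15 CPM, and in P26 control replicate 3 it was 15606 CPM with Wnt2 at 1.35 CPM. In 2-day replicate 3 it was 28153 CPM with Wnt2 at 5.06 CPM. Other lists had larger medians at 5 days, 1.21 for the endothelial and mural markers (8 of 9 above 0), 1.48 for the Schwann cell markers (6 of 6) and 1.45 for the erythroid markers (5 of 5), with no marker of these lists at 0 in a whole group. Endothelial and mural sums ran from 476 to 1426 CPM at 5 days, highest in replicates 1 and 5, against 350 to 469 CPM in the P26 controls, and did not overlap. Schwann cell sums ran from 276 to 1526 CPM against 184 to 550 CPM, and erythroid sums from 232 to 1902 CPM against 89.1 to 382 CPM, both overlapping. The mitochondrial share of counts also separated the 5-day libraries from the P26 controls. The part of stromal and other RNA, or of RNA quality, in the Wnt2 values was not tested.

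Wnt11 (ENSMUSG00000015957, GRCm38 chr7:98835112-98855195, plus strand), a ligand of mainly non-canonical signalling, was counted in every library. It stood at 5.68, 3.47 and 6.13 CPM in the P23 controls, 15.9, 6.65, 25.8 and 9.79 CPM at 2 days, 19.3, 3.7 and 5.16 CPM in the P26 controls and 7.28, 9.05, 7.84, 4.67 and 22.8 CPM at 5 days. All 4 of the 2-day libraries lay above all 3 P23 controls, and Wnt11 was the sole member of 30 for which those groups did not overlap in this direction (background 2.24%). The log2 difference at 2 days was 1.51 ± 0.76 (edgeR adjusted p = 0.919) and it was 1.45 ± 0.81 without the library labelled 2-day replicate 1. At 5 days the groups overlapped, with the library labelled P26 control replicate 1 at 19.3 CPM above all but 1 of the 5-day libraries, and the difference was 0.14 ± 0.70 (adjusted p = 1). Without that control it was 1.22 ± 0.75 (adjusted p = 0.795), and the groups still overlapped at 5-day replicate 4. The exon union of Wnt11 overlaps an opposite-strand gene over 8.80% of its length, and the strand setting of the counting is not given in the sources used here.

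Wnt5a and Wnt5b are related ligands known chiefly from non-canonical signalling. Wnt5a stood at 8.43, 13.6 and 6.61 CPM in the P23 controls, 2.49, 4.84, 12.4 and 10.7 CPM at 2 days, 9.92, 12.1 and 4.13 CPM in the P26 controls and 5.76, 17.1, 12.3, 7.89 and 11.7 CPM at 5 days. The groups overlapped at both times. Wnt5b stood at 5.2, 1.01 and 1.26 CPM in the P23 controls, 1.98, 2.31, 6.2 and 0 CPM at 2 days, 6.66, 0.924 and 1.61 CPM in the P26 controls and 7.87, 9.46, 5.82, 10.3 and 4.53 CPM at 5 days. The library labelled P26 control replicate 1 lay among the 5-day libraries while the other P26 controls lay below them. The log2 difference of Wnt5b was 1.31 ± 1.31 at 5 days (edgeR adjusted p = 0.951), 2.59 ± 1.57 without the library labelled P26 control replicate 1 (adjusted p = 0.795), and 0.07 ± 1.30 at 2 days (adjusted p = 1).

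Several ligands known from epidermis and hair follicle were highest in 1 or both of the libraries that stood apart. Wnt10b, also the ligand best known as a brake on adipocyte formation, stood at 0.612, 0 and 0 CPM in the P23 controls, 10.2, 0, 1.71 and 0 CPM at 2 days, 22.4, 2.97 and 2.24 CPM in the P26 controls and 3.3, 6.66, 0.469, 0 and 5.02 CPM at 5 days. Its highest values were in the library labelled P26 control replicate 1 and the library labelled 2-day replicate 1, and every P26 control lay above every P23 control. Wnt10a, its close relative, stood at 0, 0 and 1.19 CPM in the P23 controls, 3.51, 0, 1.07 and 0 CPM at 2 days, 8.11, 0 and 0 CPM in the P26 controls and 0, 0, 0, 0.128 and 0 CPM at 5 days. It was above 2 CPM in those same 2 libraries alone, and its log2 difference at 5 days was -6.33 ± 2.94 (edgeR adjusted p = 0.706), with 4 of the 5 libraries and 2 of the 3 controls at 0. Wnt6, an epithelial ligand whose gene lies beside Wnt10a on chromosome 1, stood at 0, 0 and 0 CPM in the P23 controls, 1.47, 0.0904, 0.495 and 0 CPM at 2 days, 30.8, 0.759 and 0 CPM in the P26 controls and 0, 5.31, 3.00, 0 and 2.02 CPM at 5 days. All 3 P23 controls were at 0 and the library labelled P26 control replicate 1 alone exceeded 6 CPM, while the library labelled 2-day replicate 1 lay below 3 of the 5-day libraries. Against the 3-count floor per library, the mean of Wnt6 was at least 5.01-fold higher at 2 days and at least 102.7-fold higher in the P26 than in the P23 controls, as far as a 0 stands for a level under that floor. Without the highest library of each group, 2-day replicate 1 and P26 control replicate 1, these folds were 1.90 and 3.70, and the DESeq2 call (adjusted p = 0.00639; edgeR adjusted p = 0.637) was not refitted without the latter. The edgeR difference between the 5-day and 2-day effects of Wnt6 had an unadjusted p of 0.0245 and an adjusted p of 0.811.

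Wnt4, a ligand with both canonical and non-canonical roles, stood at 1.5, 0 and 0 CPM in the P23 controls, 34.4, 0, 0 and 2.29 CPM at 2 days, 3.49, 2.05 and 0 CPM in the P26 controls and 5.5, 0.720, 1.64, 5.06 and 2.84 CPM at 5 days. Its value in the library labelled 2-day replicate 1 was the highest of all, and the 5-day libraries, all above 0, overlapped the P26 controls. Wnt3, a canonical ligand of the hair follicle, stood at 0, 0.434 and 0 CPM in the P23 controls, 10.1, 0, 0 and 0 CPM at 2 days, 4.31, 1.06 and 0 CPM in the P26 controls and 0, 0, 0, 0.945 and 0.823 CPM at 5 days. It was at 0 in the other 2-day libraries. Wnt7b, another epithelial ligand, stood at 2.21, 0 and 0 CPM in the P23 controls, 4.59, 0.181, 0 and 0 CPM at 2 days, 8.7, 2.61 and 1.35 CPM in the P26 controls and 0, 0, 0, 2.61 and 1.69 CPM at 5 days. The library labelled P26 control replicate 1 and the library labelled 2-day replicate 1 were again the highest. In these 2 libraries the keratinocyte marker sums were 4676 and 1092 CPM and the hair follicle sums 849 and 4719 CPM, the highest of the 15 for both lists. All 9 keratinocyte markers were above 0 in every group. Of the 8 hair follicle markers in the count table, 5 (Krt25, Krt71, Krt72, Krt73 and Krt35) were at 0 in all P23 controls. Krt72 was also at 0 in all P26 controls and all 5-day libraries. The part of epidermal and follicular RNA in these ligand values was not tested.

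**Figure D3:**
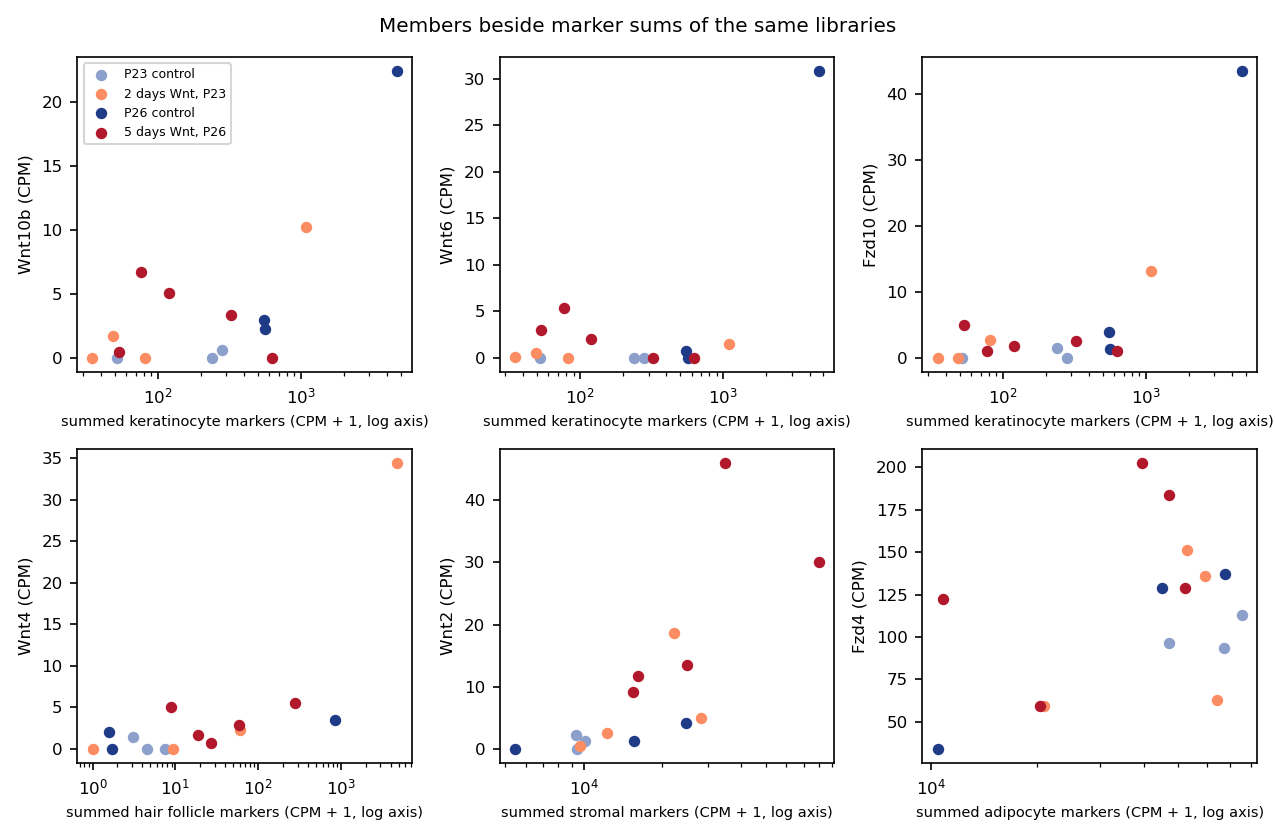
CPM of 6 members (vertical axes) against the summed CPM of marker genes in the same library (horizontal log axes, sum + 1), with a point for each of the 15 libraries coloured by group. Wnt10b, Wnt6 and Fzd10 are highest in the library with the highest keratinocyte sum, Wnt4 in the library with the highest hair follicle sum, and Wnt2 in 2 libraries with high stromal sums. Fzd4 is lowest in the library with the lowest adipocyte sum but at its median in the library with the next lowest.

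The remaining ligands were seen in some libraries. Wnt2b, which resembles Wnt2, stood at 0.612, 0 and 2.77 CPM in the P23 controls, 2.74, 0, 3.73 and 0 CPM at 2 days, 0, 0.561 and 0 CPM in the P26 controls and 0, 5.13, 1.08, 1.43 and 6.58 CPM at 5 days. Groups overlapped at both times, and 5-day replicates 2 and 5 were the highest. Wnt9a stood at 0, 0.543 and 0 CPM in the P23 controls, 0, 0, 4.6 and 2.82 CPM at 2 days, 3.53, 3.17 and 3.18 CPM in the P26 controls and 0.762, 3.2, 3.38, 0.690 and 11.1 CPM at 5 days. The 3 P26 controls were close together and above all P23 controls, and with Wnt10b it was 1 of 2 members of 30 for which the control groups did not overlap (background 6.51% of genes higher at P26). Wnt16 stood at 0.816, 0 and 0 CPM in the P23 controls, 0, 0, 0 and 0 CPM at 2 days, 0, 3.04 and 0 CPM in the P26 controls and 0, 0, 0.422, 0 and 0 CPM at 5 days. Its 2-day group was wholly at 0, and the P23 control mean was 1.86-fold the floor of that group, so at least 1.86-fold lower at 2 days where 0 is read as under the floor. That mean rested on the library labelled P23 control replicate 1, since the other P23 controls were at 0 too. Wnt16 had an edgeR p of 0.0400 in the mean effect (adjusted p = 0.612). Wnt3a, at 6.35 CPM in 5-day replicate 1 and at 0 elsewhere, was not tested. Wnt7a, Wnt8b and Wnt9b stayed at or below 1.07 CPM in every library and were not tested either.

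Fzd4 (ENSMUSG00000049791, GRCm38 chr7:89404355-89413134, plus strand), a receptor that also binds the non-Wnt ligand Norrin, was the most abundant Frizzled. It stood at 93.2, 113 and 96.1 CPM in the P23 controls, 59.5, 62.6, 152 and 136 CPM at 2 days, 33.8, 129 and 137 CPM in the P26 controls and 59.1, 203, 184, 129 and 123 CPM at 5 days. The groups overlapped at both times, and its lowest value was in the library labelled P26 control replicate 1, the library with the lowest adipocyte marker sum (10452 CPM). Other libraries did not follow that order. In 5-day replicate 5 the adipocyte sum was 10819 CPM with Fzd4 at 123 CPM, and in 2-day replicate 2 it was 64101 CPM with Fzd4 at 62.6 CPM. The log2 difference was 0.02 ± 0.49 at 2 days (edgeR adjusted p = 1) and 0.48 ± 0.47 at 5 days (adjusted p = 0.947). Over both ages it was 0.25 ± 0.34 (edgeR adjusted p = 0.996).

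Fzd1 (ENSMUSG00000044674, GRCm38 chr5:4753839-4758035, minus strand) and Fzd2 (ENSMUSG00000050288, GRCm38 chr11:102604396-102608058, plus strand) are closely related receptors. Fzd1 stood at 20.5, 17.8 and 13 CPM in the P23 controls, 51.2, 11.3, 54.8 and 41.4 CPM at 2 days, 79.8, 12.3 and 12.5 CPM in the P26 controls and 45, 43, 34.7, 30.4 and 62.8 CPM at 5 days. At 2 days 3 libraries lay above all P23 controls and replicate 2 lay below them, and at 5 days all libraries lay above P26 control replicates 2 and 3 and below replicate 1. Fzd2 stood at 6.26, 12.5 and 7.19 CPM in the P23 controls, 32, 7.69, 23.2 and 13.3 CPM at 2 days, 44.5, 10.7 and 7.44 CPM in the P26 controls and 42.7, 30.5, 22.9, 23.1 and 34.6 CPM at 5 days. It too was highest of all in the library labelled P26 control replicate 1, with the 5-day libraries above the other controls. The log2 difference of Fzd1 was 1.21 ± 0.61 at 2 days (edgeR adjusted p = 0.919) and 0.31 ± 0.57 at 5 days (adjusted p = 0.999), and that of Fzd2 was 1.14 ± 0.60 (adjusted p = 0.919) and 0.56 ± 0.57 (adjusted p = 0.955). Without the library labelled P26 control replicate 1 the 5-day difference was 1.80 ± 0.52 for Fzd1 (edgeR adjusted p = 0.457) and 1.76 ± 0.56 for Fzd2 (adjusted p = 0.548). In the mean over both ages, leaving it out took Fzd1 from 0.76 ± 0.42 to 1.50 ± 0.34 (adjusted p = 0.139) and Fzd2 from 0.85 ± 0.41 to 1.44 ± 0.37 (adjusted p = 0.200). Neither passed the threshold with or without that library, and without it sex and genotype cannot be told apart in the P26 comparison. With the library labelled 2-day replicate 1 also left out, the mean effect was 1.43 ± 0.34 for Fzd1 and 1.26 ± 0.35 for Fzd2.

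**Figure D4:**
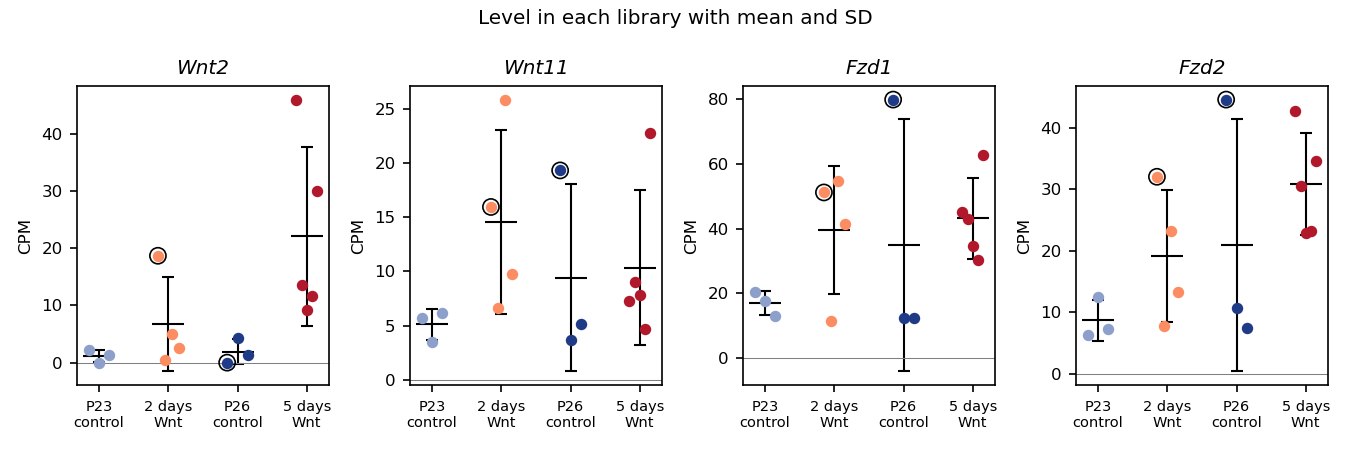
CPM of Wnt2, Wnt11, Fzd1 and Fzd2 (vertical axes, with a grey line at 0) in each library by group, with the mean and SD of each group in black. Rings mark the library labelled P26 control replicate 1 and the library labelled 2-day replicate 1. The 5-day libraries lie above all P26 controls for Wnt2, and above the 2 controls without a ring for Fzd1 and Fzd2.

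Fzd7, a receptor linked to stem and progenitor cells, stood at 26.1, 13.2 and 20.9 CPM in the P23 controls, 23.1, 13, 21.8 and 27.4 CPM at 2 days, 26.8, 18 and 8.3 CPM in the P26 controls and 26.2, 34.2, 20.1, 10.9 and 24.7 CPM at 5 days. Its groups overlapped throughout. Fzd5 stood at 11.4, 7.85 and 16.9 CPM in the P23 controls, 34.4, 6.33, 16.4 and 9.84 CPM at 2 days, 31.1, 8.32 and 9.06 CPM in the P26 controls and 10.4, 12.8, 14.8, 13.4 and 18.1 CPM at 5 days. The 2 libraries that stood apart were the highest, and 17.8% of its exon union overlaps an opposite-strand gene. Fzd8, a near relative of Fzd5, stood at 5.92, 9.37 and 5.32 CPM in the P23 controls, 6.44, 11, 9.78 and 7.59 CPM at 2 days, 14.6, 6.6 and 8.79 CPM in the P26 controls and 3.98, 9.95, 5.3, 7.25 and 10.2 CPM at 5 days. Its groups overlapped, and the library labelled P26 control replicate 1 was the highest.

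Fzd6, which acts in hair patterning through planar cell polarity, stood at 1.12, 1.85 and 10.7 CPM in the P23 controls, 11.7, 3.21, 6.32 and 0 CPM at 2 days, 7.3, 3.04 and 0 CPM in the P26 controls and 3.13, 3.74, 1.6, 0.102 and 24.8 CPM at 5 days. A single 5-day library, replicate 5, was far above the rest of its group. Fzd3, its partner in that pathway, stood at 8.74, 4.02 and 8.41 CPM in the P23 controls, 3.82, 2.71, 14.4 and 1.34 CPM at 2 days, 7.07, 5.35 and 2.96 CPM in the P26 controls and 0, 8.47, 3.71, 1.99 and 9.59 CPM at 5 days. Its groups overlapped at both times. Fzd10 stood at 0, 1.45 and 0 CPM in the P23 controls, 13.2, 0, 0 and 2.67 CPM at 2 days, 43.4, 3.86 and 1.26 CPM in the P26 controls and 2.54, 0.946, 4.93, 1.05 and 1.69 CPM at 5 days. It was above 6 CPM in the 2 libraries that stood apart alone. The log2 difference of Fzd10 in P26 against P23 controls was 5.06 ± 2.39 (edgeR adjusted p = 0.699), that at 2 days 3.03 ± 2.12 and that at 5 days -2.86 ± 1.79, neither called. Fzd9 stood at 0, 0 and 0 CPM in the P23 controls, 7.01, 0, 0.609 and 0 CPM at 2 days, 0, 1.12 and 1.26 CPM in the P26 controls and 1.69, 0, 0.376, 0 and 0 CPM at 5 days. With the P23 controls all at 0, its 2-day mean was at least 18.6-fold higher against the 3-count floor where 0 is read as under the floor, and at least 1.98-fold higher without the library labelled 2-day replicate 1. The edgeR adjusted p of Fzd9 was 0.919 at 2 days and 0.868 for the difference between the times.

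The co-receptors Lrp5 and Lrp6, which pair with Frizzleds to receive canonical Wnts, were counted at more than 20 CPM in every library. Lrp5 stood at 82.7, 135 and 100.2 CPM in the P23 controls, 106, 125, 149 and 86.7 CPM at 2 days, 50.7, 78.7 and 126 CPM in the P26 controls and 101, 106, 100.2, 97.6 and 96.1 CPM at 5 days. Its 5-day libraries spanned a narrow range inside that of the P26 controls, and the library labelled P26 control replicate 1 was the lowest of all. Lrp6 stood at 115, 35.1 and 82.1 CPM in the P23 controls, 44.6, 22.6, 97.1 and 88.7 CPM at 2 days, 67.9, 79.2 and 30.6 CPM in the P26 controls and 36, 86.3, 54.5, 75.7 and 142 CPM at 5 days. It varied widely within every group. The log2 differences of Lrp5 were 0.14 ± 0.33 at 2 days and 0.23 ± 0.32 at 5 days, and over both ages 0.19 ± 0.23 (edgeR adjusted p = 0.986). Those of Lrp6 were -0.29 ± 0.53, 0.41 ± 0.52 and 0.06 ± 0.37 in the same order (adjusted p = 1 over both ages).

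Ryk (ENSMUSG00000032547, GRCm38 chr9:102834917-102908305, plus strand), an atypical receptor that binds Wnts through an extracellular WIF domain, was the most abundant of the alternative receptors. It stood at 79, 57.4 and 73.9 CPM in the P23 controls, 97.4, 81.4, 69.4 and 88.1 CPM at 2 days, 133, 56.1 and 50.1 CPM in the P26 controls and 140.1, 89.9, 79.9, 73 and 107 CPM at 5 days. The library labelled P26 control replicate 1 overlapped the 5-day libraries, which all lay above the other P26 controls. Its log2 difference was 0.30 ± 0.34 at 5 days (edgeR adjusted p = 0.967), 0.89 ± 0.34 without the library labelled P26 control replicate 1 (adjusted p = 0.706) and 0.26 ± 0.36 at 2 days (adjusted p = 1). Ror2, a receptor tyrosine kinase for Wnt5a, stood at 4.97, 1.41 and 1.19 CPM in the P23 controls, 5.04, 3.16, 10.4 and 8.21 CPM at 2 days, 0, 5.87 and 1.88 CPM in the P26 controls and 12.6, 5.22, 5.21, 9.96 and 15.4 CPM at 5 days. It was at 0 in the library labelled P26 control replicate 1, and the groups overlapped at both times. Ror1, its paralog, stood at 1.56, 0.507 and 0.548 CPM in the P23 controls, 0, 3.98, 1.03 and 4.15 CPM at 2 days, 3.49, 0 and 1.7 CPM in the P26 controls and 3.05, 0.901, 0.188, 4.83 and 14 CPM at 5 days. The highest value was that of 5-day replicate 5, the library with the highest stromal sum.

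Among the secretion genes, Wls stood at 97.3, 36.9 and 48.6 CPM in the P23 controls, 57, 44.3, 70.8 and 109 CPM at 2 days, 110.3, 64.4 and 61.1 CPM in the P26 controls and 133, 89.5, 79.5, 69.9 and 85.8 CPM at 5 days. Its 5-day libraries lay above P26 control replicates 2 and 3 and on both sides of replicate 1. Porcn stood at 11.2, 10.8 and 4.19 CPM in the P23 controls, 10.4, 13.9, 15.8 and 15.2 CPM at 2 days, 6.57, 7.39 and 10.1 CPM in the P26 controls and 4.99, 10.4, 15.3, 9.45 and 5.72 CPM at 5 days. At 2 days 3 of the 4 libraries lay above all P23 controls, and the library labelled replicate 1 lay among them. The log2 difference of Wls was 0.20 ± 0.40 at 2 days and 0.22 ± 0.38 at 5 days (edgeR adjusted p = 0.999), and that of Porcn 0.67 ± 0.59 (adjusted p = 1) and 0.19 ± 0.56 (adjusted p = 0.999).

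Across the 30 members tested, 26 had a log2 difference above 0 at 2 days and 4 below (background 49.4% of genes above 0), with a median of 0.68 against 0 over all genes. At 5 days 19 were above 0 and 11 below (background 51.6%), with a median of 0.23 against 0.03. In the mean over both ages 25 were above and 5 below (background 51.5%), with a median of 0.51 against 0.02, or 0.35 with the members of groups at 0 set to their bound. The 13 members counted in every library had medians of 0.26 at 2 days and 0.30 at 5 days, with SEs of 0.33 to 0.76 and 0.32 to 0.70. The other 17 had medians of 1.51 and -0.11, with SEs of 1.20 to 3.77 and 1.16 to 2.94. By role, the median of the 13 ligands was 1.51 at 2 days and 0.14 at 5 days, and that of the 10 Frizzleds was 0.41 and 0.10. Ror1, Ror2 and Ryk had log2 differences above 0 at both times, none of them called.

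**Figure D5:**
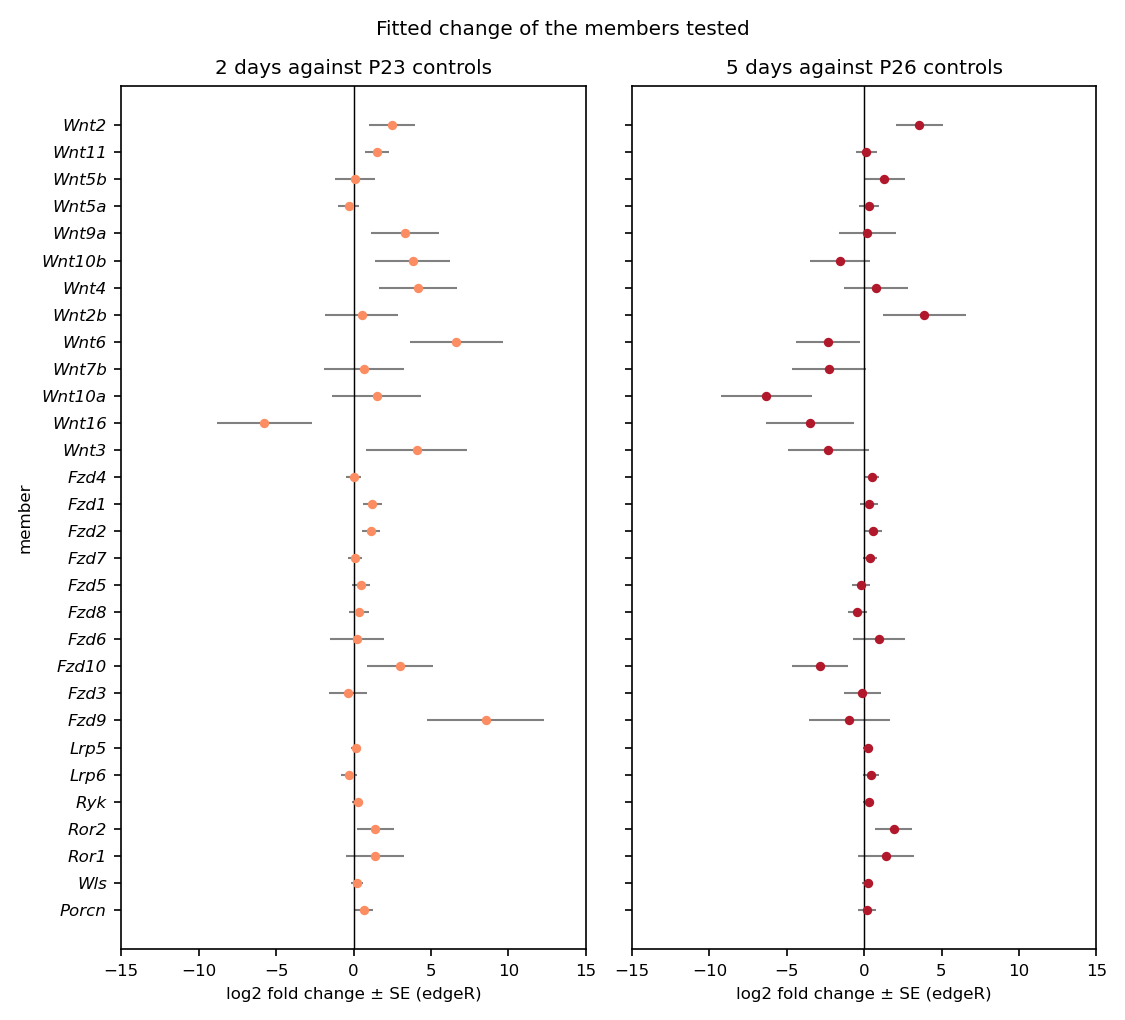
Log2 difference with its SE (edgeR) for the 30 members tested, at 2 days against P23 controls (left) and at 5 days against P26 controls (right). The 13 members counted in every library lie between -0.45 and 1.51 with short bars, and the 17 at 0 in some libraries spread from -6.33 to 8.54 with long bars.

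These counts depended on single libraries. Of the 30 members, the library labelled P26 control replicate 1 was above both other P26 controls for 20, and the library labelled 2-day replicate 1 was above the other 2-day libraries for 13. Without the first, the 5-day median was 0.68 and the mean effect 1.36. In that case 7 of 30 members (Fzd5, Wls, Fzd1, Wnt2, Wnt5b, Ryk and Fzd2) lay higher in every 5-day library than in both remaining controls, against 7.13% of all genes. Both remaining controls also lay below every 5-day library in Y-linked transcripts, at 1.39 and 0 CPM against 76.8 CPM or more. Sex and genotype therefore cannot be told apart there. Without the second, the 2-day median was 0.25, with 21 members above 0 and 9 below, and Wnt11 and Porcn did not overlap with the P23 controls (background 3.54%). Without the library labelled P23 control replicate 1, whose Axin2 was high, the 2-day median was 0.95. With the library labelled 2-day replicate 1 counted as a control, the 2-day split was 15 above and 15 below. No member of 30 lay wholly below the controls at 2 days (background 2.91% of genes) or at 5 days (2.25%), nor in the P26 against the P23 controls (5.67%). The same held without the library labelled 2-day replicate 1 at 2 days (4.70%) and without the library labelled P26 control replicate 1 at 5 days (8.59%). No member separated all 9 Wnt libraries from all 6 controls in the higher direction (background 0.100% of genes) or the lower (0.0236%).

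The difference between the 5-day and 2-day effects was above 0 for 15 members and below for 15 (background 52.7% above 0), with a median of -0.23 against 0.06. Both effects rest on separate controls, and no member was called different between the times by edgeR. Between the control groups 21 members were higher and 9 lower at P26 (background 48.4% higher), with a median of 0.60 against -0.01. Without the library labelled P26 control replicate 1 that split was 15 and 15.

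Other genes of the pathway were taken from textbook lists, and none of them was called by edgeR in any comparison. Of 12 secreted antagonists tested, 10 had a log2 difference above 0 at 2 days and none below, 8 were above and 4 below at 5 days, and the median over both ages was 1.69. Sfrp2, a decoy that binds Wnts, had 1.65 ± 0.44 in the mean over both ages (edgeR adjusted p = 0.323). Of 14 β-catenin target genes, 11 were above 0 over both ages with a median of 0.62, and Nkd1, a feedback inhibitor, had 1.12 ± 0.30 (adjusted p = 0.324) and Axin2 1.23 ± 0.52 (adjusted p = 0.568). The 16 partners of the receptors had a median of 0.72 (11 above 0), the 9 genes of the R-spondin axis 0.34 (5 above 0), the 8 nuclear effectors 0.30 (6 above 0) and the 11 genes of Dishevelled and the destruction complex 0.04 (6 above 0). The secreted antagonists include stromal products, and stromal marker sums differed in the same direction, so their part in these values was not tested.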

How the data were processed

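RNA was measured in 15 libraries of isolated adipocytes, made from 100 ng of total RNA with the Universal Plus mRNA-Seq kit per the labels' protocols. The authors deposited raw counts per gene, which were used as deposited. DESeq2 1.40.1, Cufflinks 2.2.1, SAMtools 1.9 and Trimmomatic 0.39, and the builds mm10 and GRCm38, are listed without roles in the submitters' processing notes. As to the aligner, counter and strand setting, they are not given in the sources used, so members that overlap an opposite-strand gene (Fzd5, Fzd6, Wnt5a, Wnt7b and Wnt11) are uncertain. No libraries held identical counts. Groups are those of the titles. The library labelled 2-day replicate 1 is a control in the authors' deposited sample sheet, and its library name ends in C like those of the controls. It was kept as its title has it.

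Genes were filtered with edgeR's filterByExpr (16935 kept, 18438 removed), scaled by TMM and fitted in a 4-group quasi-likelihood model of all libraries (edgeR 4.0.16, R 4.3.3). The model was also run on simulated counts with known changes. The share of those changes that it called is not given here. P-values were two-sided and adjusted over all genes (Benjamini-Hochberg, threshold 0.05). CPM was computed from the deposited counts and the TMM-scaled library sizes, and lengths are exon unions of GENCODE M21 on GRCm38, where all 36 members have the positions of the table. Each Wnt group was set against controls of its age, and the mean of both effects, their difference and the older against the younger controls were also fitted. Alternatives were other scaling factors and filters, DESeq2 1.42.0, limma-voom (limma 3.58.1), the replicate number as a block, the sample sheet's grouping, Y-linked or keratinocyte levels as a covariate, other lengths and each library left out. Leaving out both libraries with high epidermal or follicular markers was added after seeing the data.

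The members, the pathway lists and the marker lists were chosen with earlier results of these data known. Members with a group mean of at least 1 CPM are given in every library. Of these, differences with errors are given for those with an unadjusted edgeR p under 0.05 in any contrast and for the 3 most abundant of each role, and the 2-day and 5-day values of other members are summarised by counts and medians. SEs are log2 differences over the square root of edgeR's F.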

Additional observations from a re-analysis of the deposited data

Results flagged for a closer look

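In groups of 4 or 5 libraries, 12 of 60 groups of member values had a library far from the others by Dixon's 95% criterion. The criterion assumes normally distributed values, whereas these were CPM with many zeros, and a group with a single nonzero library always meets it. The groups also share the same libraries, so no rate expected by chance is given. The library labelled 2-day replicate 1 accounted for 5 of them, with Wnt4 at 34.4 CPM, Wnt10b at 10.2 CPM, Wnt3 at 10.1 CPM, Fzd9 at 7.01 CPM and Wnt7b at 4.59 CPM, each far above the rest of its group. At 5 days, replicate 5 was far above the rest for Fzd6 at 24.8 CPM, Wnt11 at 22.8 CPM and Wnt9a at 11.1 CPM. In 5-day replicate 1, Wnt3a stood at 6.35 CPM and Fzd9 at 1.69 CPM. Wnt16 at 0.422 CPM in 5-day replicate 3 and Wnt10a at 0.128 CPM in 5-day replicate 4 stood apart because every other 5-day library was at 0 for that gene. The control groups of 3 libraries were not examined by this criterion, and so neither were the high values of the library labelled P26 control replicate 1.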

How the results depend on the processing

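Other scaling factors and other filters on low counts changed no count of calls. DESeq2 called 149 genes at 2 days, 200 at 5 days, 321 in the mean effect, 149 for the difference between times and 286 between the controls, with 1 member in the mean effect and 1 between the controls, where edgeR called 0. With limma-voom, 226, 11 and 134 genes were called at 5 days, in the mean effect and between the controls. Leaving out both libraries that stood apart gave 4 genes at 5 days and 1 in the mean effect, with no member among them, and a median member difference between times of 0.69. That median was 0.41 with the keratinocyte covariate. With the sample sheet's grouping, the median of the members at 2 days was 0.000116. The Y-linked covariate took the 5-day median of the members to -0.17, with 13 above 0 and 17 below, and the 2-day median to 0.79. Among the members given with errors, it changed the sign of the 5-day difference for Fzd9, Lrp6, Porcn, Wls and Wnt11. The replicate block called 5 genes between the controls and 0 in the other comparisons, with member medians of 0.71 at 2 days and 0.19 at 5 days. Same-numbered libraries correlated at -0.061 to 0.298 in their deviations from the group means. Libraries of different numbers were not compared in this way, so whether the numbers pair them was not tested. Leaving out each library in turn, members' medians ran from 0.25 to 1.01 at 2 days, from 0.06 to 0.68 at 5 days, from 0.24 to 1.36 in the mean effect, from -0.67 to 0.35 for the difference and from 0 to 0.99 between the controls. Genes called ran from 0 to 0 at 2 days, 0 to 4 at 5 days, 0 to 3 in the mean effect, 0 to 2 for the difference and 0 to 5 between the controls, and members called were 0 throughout. Of 2040 differences of the 16 members given with errors, 1872 moved by less than their SE under an alternative, 166 moved by more, 2 passed the threshold (both with DESeq2) and 0 were reversed past it. Many alternatives left out a library of the other age, which could move a 2-day or 5-day difference little. Changes of sign short of the threshold are not counted as reversals. They occurred in 9 of 26 alternatives for Fzd4 at 2 days and 8 of 26 for Lrp6 over both ages, but in 0 of 25 for Wnt2 at 5 days.

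The precision is limited by 3 to 5 libraries per group, by SEs above 1 on the log2 scale for most ligands, and by zeros beside counts far above 1 or 2. Sex, marker levels of other cell types and Axin2 differed between libraries of the same label.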
